A study of Homo sapiens with 6 samples.

Results

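The genes described here are 8 inhibitors of Wnt signalling that Wnt signalling itself switches on, AXIN2, DKK1, NKD1, RNF43, ZNRF3, NOTUM, APCDD1 and SP5. They were chosen by name as Wnt-induced inhibitors, out of 20163 protein-coding genes among 64449 annotated genes. No measured value entered the choice, but earlier results of these data were known, and the paper shows AXIN2 and DKK1 as examples. For each of the 8 genes, the called regions within 5 kb and within 50 kb of any annotated transcription start site (TSS), and in the gene body, were read from 4 region lists. The study asked where the histone demethylase KDM3B sits on chromatin, and where the repressive mark H3K9me2 (dimethylated lysine 9 of histone H3) lies, in HCT116, a long-established line of human colorectal cancer cells with an activating mutation of β-catenin. HCT116/Scrsh cells carried a scramble control (libraries labelled Con, below control cells), and HCT116/ABsh-1 cells were depleted of both KDM3A and KDM3B (libraries labelled KD, below depleted cells). The sample labels describe siRNA given with a transfection reagent, whereas the names of the cell populations denote shRNA. There was 1 library for each antibody and cell population, so that every comparison between the populations sets 1 list beside another and no test between them was possible.

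In the canonical Wnt pathway, secreted Wnt proteins bind Frizzled receptors and the LRP5/6 co-receptors, a cytoplasmic complex that degrades β-catenin is switched off, and β-catenin enters the nucleus to activate genes bound by TCF/LEF factors. Among the genes so activated are brakes on the pathway at each of its levels. DKK1 is a secreted antagonist of LRP5/6, NOTUM is a secreted enzyme that removes the lipid from Wnt proteins, and APCDD1 is a membrane glycoprotein that inhibits Wnt reception. RNF43 and ZNRF3 are transmembrane ubiquitin ligases that clear Frizzled from the cell surface. AXIN2 is a scaffold of the β-catenin degradation complex, NKD1 binds Dishevelled in the cytoplasm, and SP5 is a zinc finger transcription factor. KDM3A and KDM3B remove H3K9me2.

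The 4 lists differed strongly in length. KDM3B had 17638 regions in control cells and 8046 in depleted cells, and H3K9me2 had 11645 and 88855. Read numbers are not in the lists, so that library depth is unknown, and a gene without a region is a gene at which enrichment was not detectable at that depth. Each region carries a deposited score, whose meaning is not given in the sources used here. It was used only for the rank of a region in its own list, given below as the share of the list with a lower score.

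Near their start sites, the feedback genes had fewer KDM3B regions and more H3K9me2 regions in depleted cells than in control cells. Within 5 kb of a TSS, KDM3B regions were called at 5 of the 8 genes in control cells, where 35.0% of all protein-coding genes had one, and at 2 of the 8 in depleted cells, where 19.2% had one. H3K9me2 regions were called at 1 of the 8 genes in control cells, against 10.2% of all protein-coding genes, and at 7 of the 8 in depleted cells, against 49.2%. When the longer H3K9me2 list was reduced to the 11645 regions with the highest scores, to equal the shorter list, 3 of the 8 genes (AXIN2, NKD1 and NOTUM) had a region in depleted cells, against 17.0% of all protein-coding genes. With the KDM3B list of control cells likewise reduced to the length of that of depleted cells, 4 of the 8 genes had a region in control cells (19.6% of all protein-coding genes), SP5 no longer among them. Fewer KDM3B bases in depleted cells were seen at 5 of the 8 genes (AXIN2, DKK1, RNF43, ZNRF3 and SP5) and at 28.7% of all protein-coding genes. More H3K9me2 bases were seen at 6 of the 8 (all but DKK1 and ZNRF3) and at 48.4% of all protein-coding genes. The combination of fewer KDM3B and more H3K9me2 bases occurred at AXIN2, RNF43 and SP5, 3 of the 8, and at 14.8% of all protein-coding genes. At RNF43 these changes lay far apart, with KDM3B at −55 bp and H3K9me2 at 54995 and 58845 bp, near an alternative start. With the canonical TSS alone, RNF43 had no H3K9me2 region within 5 kb in depleted cells. The lists as a whole differed in the same directions.

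The covered length near the start sites differed widely among the 8 genes. In depleted cells, H3K9me2 covered 10981 bases within 5 kb of the start sites of the 8 genes together, of which NOTUM held 42.9%. The median over the 8 genes was 750 bases and the median over all protein-coding genes 0, and the means were 1373 and 708. In control cells, H3K9me2 covered 100 bases, all of them at ZNRF3. KDM3B covered 1800 bases in control cells, with a mean of 225 per gene against 99.1 over all protein-coding genes, and 400 bases in depleted cells.

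**Figure D1:**
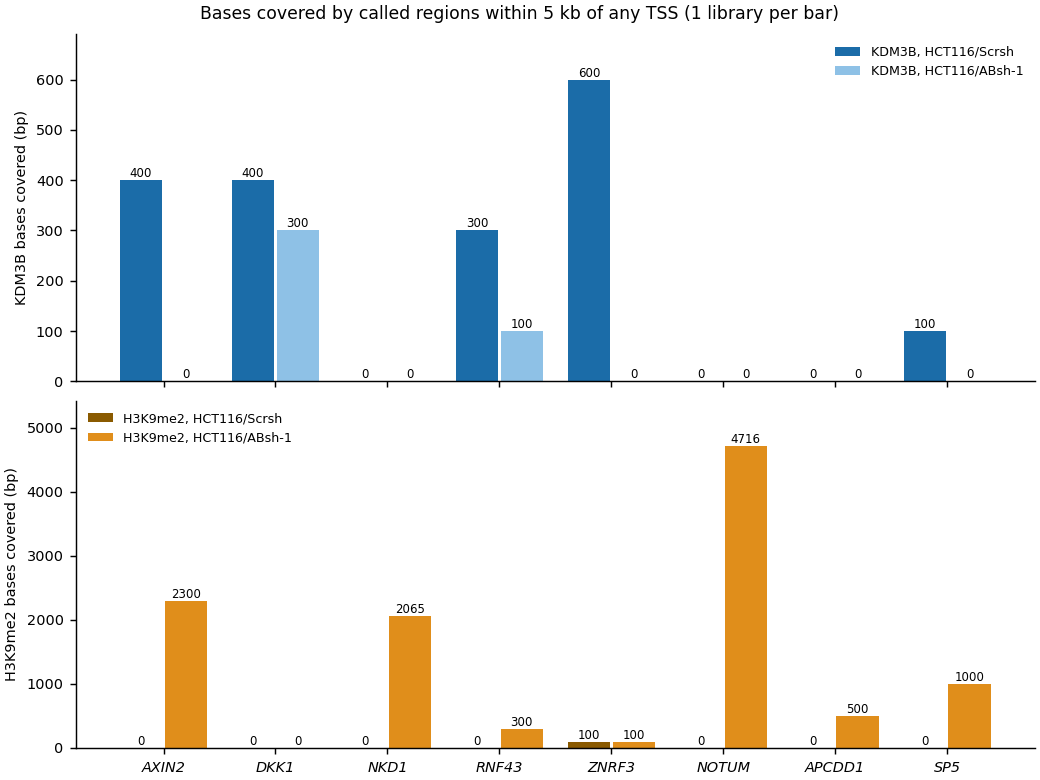
Bases covered by called regions within 5 kb of any TSS, in bp, at each of the 8 genes, with KDM3B above and H3K9me2 below. In the figures, HCT116/Scrsh stands for control cells and HCT116/ABsh-1 for depleted cells. Each bar is 1 library without replicates, and the printed value is its height. NOTUM had the tallest H3K9me2 bar in depleted cells (4716 bases) and ZNRF3 the tallest KDM3B bar in control cells (600 bases).

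Within 50 kb of a TSS, KDM3B regions were called at all 8 genes in control cells, as at 71.8% of all protein-coding genes, and at 5 of the 8 in depleted cells, as at 50.6%. H3K9me2 regions were called at 5 of the 8 genes in control cells (37.3% of all protein-coding genes) and at all 8 in depleted cells (75.8%). In the gene bodies, KDM3B regions were called at 5 of the 8 genes in control cells (34.3%) and at 3 in depleted cells (19.1%). H3K9me2 regions in the bodies were called at 2 of the 8 genes (APCDD1 and ZNRF3) in control cells (15.9%) and at 7 in depleted cells (51.2%). The number of H3K9me2 regions within 50 kb was 10 in control cells and 138 in depleted cells. Many of these lay nearer to other genes, as described for RNF43 and NOTUM. With the H3K9me2 list of depleted cells reduced as above, 4 of the 8 genes had a region within 50 kb (36.8% of all protein-coding genes) and 4 in the body (17.6%).

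**Figure D2:**
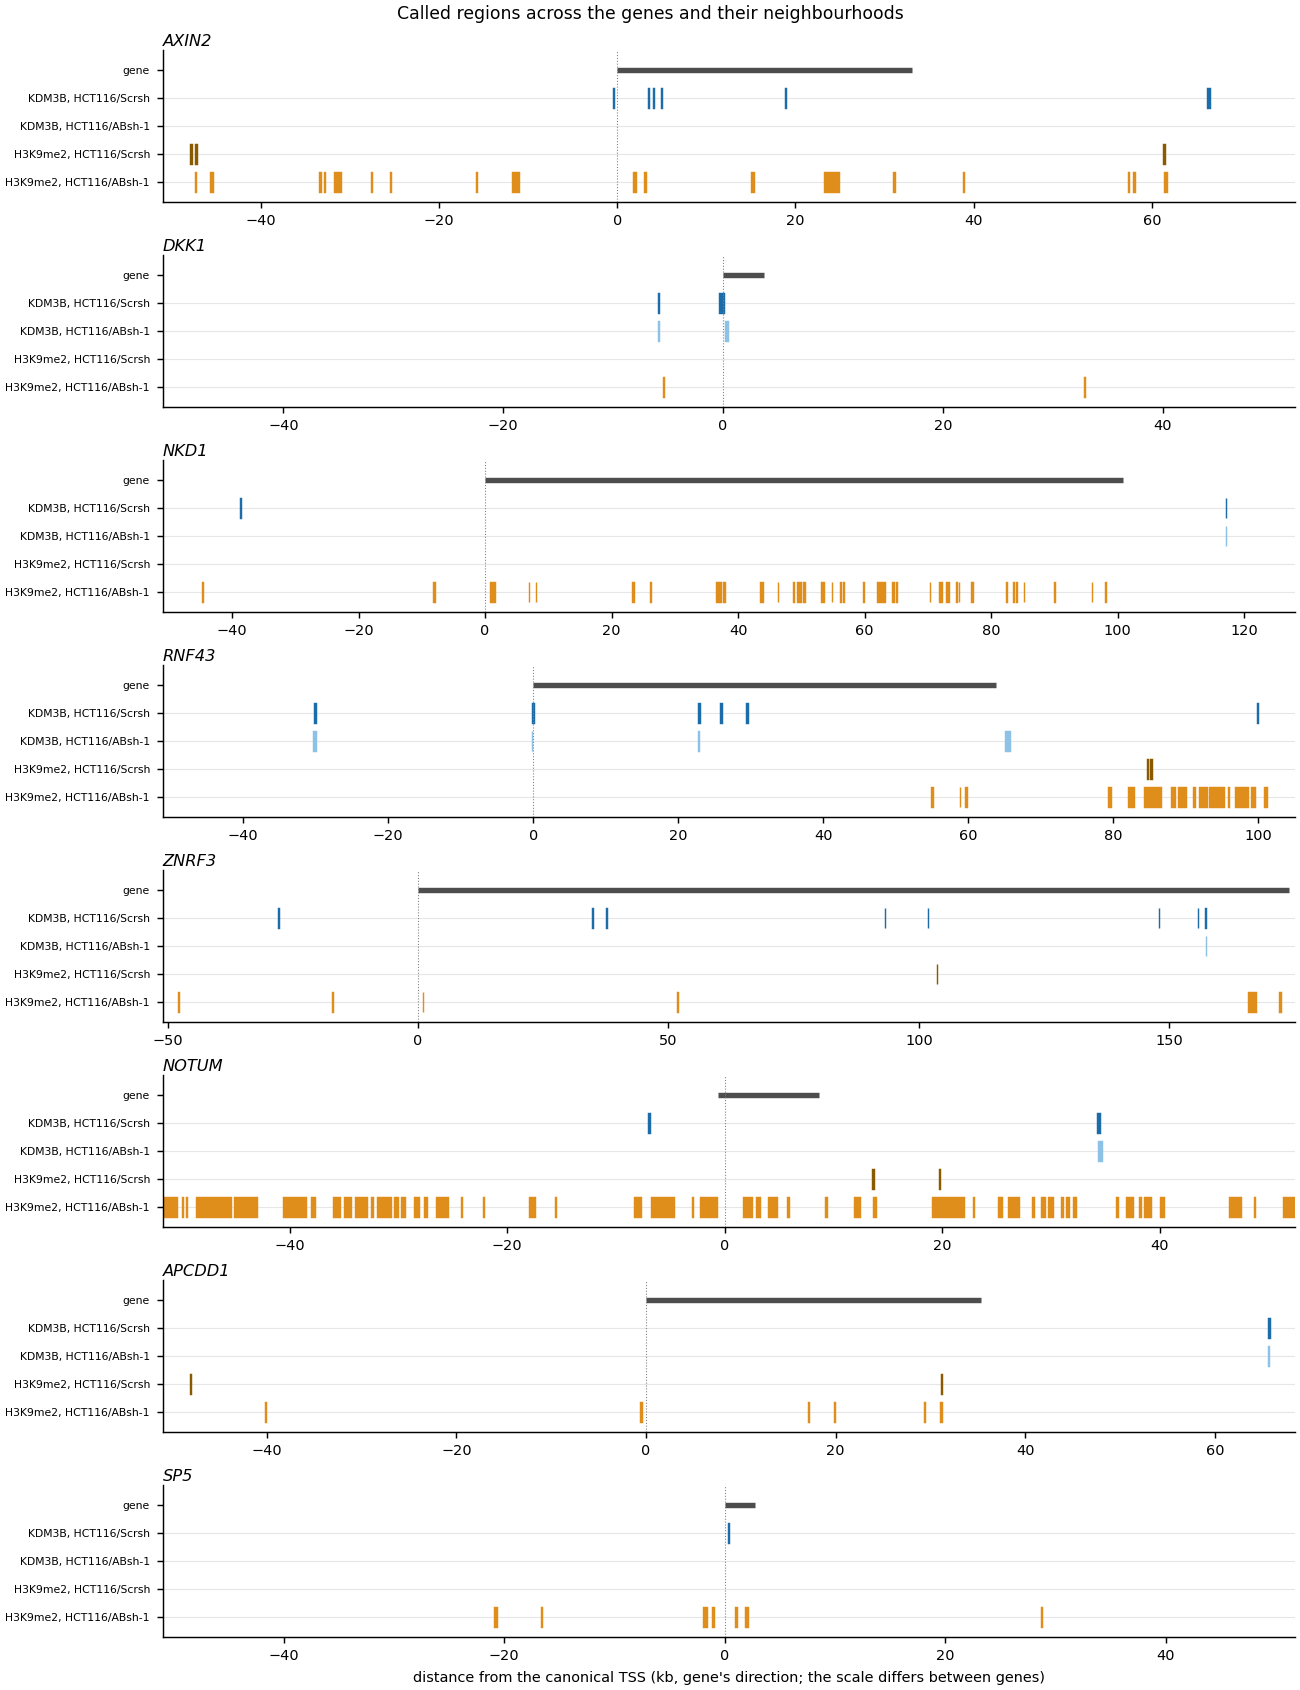
Called regions of the 4 lists across each gene and up to 50 kb from any of its start sites, against the distance from the canonical TSS in kb, in the direction of transcription. The dark bar is the gene, the dotted line the canonical TSS, and each coloured box a region to scale, apart from a thin outline. The H3K9me2 regions of depleted cells lie along the body of NKD1 (34 regions) and on both sides of NOTUM (50 regions), whereas DKK1 had 2.

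Among the secreted antagonists, DKK1 was the only one of the 8 genes with no H3K9me2 region called within 5 kb in either population. The paper, however, reports more H3K9me2 on DKK1 after depletion, from its ChIP-seq and from ChIP-qPCR in HCT116 cells. The lack of a called region is therefore not a lack of the mark. DKK1 (chr10:54074041-54077802, plus strand, 3.76 kb) had a KDM3B region of 400 bp across its start site in control cells, of which 60 bases lay in the 5′ UTR of exon 1. Its score was above that of 88.8% of the list. In depleted cells the region at the start lay in coding exon 1 and intron 1, with a gap of 100 bp between the positions, and its score was above that of 62.6% of its list. The sequences before the start site and of the region in depleted cells are shown because the former holds a TCF/LEF core and the latter does not. They are from hg19, on the plus strand, and capitals mark the TCF/LEF cores (CTTTGAA or CTTTGAT, either strand) and GC boxes (GGGCGG, either strand), as in all sequences below.
DKK1, KDM3B region of control cells, bases before the TSS (chr10:54073701-54074000): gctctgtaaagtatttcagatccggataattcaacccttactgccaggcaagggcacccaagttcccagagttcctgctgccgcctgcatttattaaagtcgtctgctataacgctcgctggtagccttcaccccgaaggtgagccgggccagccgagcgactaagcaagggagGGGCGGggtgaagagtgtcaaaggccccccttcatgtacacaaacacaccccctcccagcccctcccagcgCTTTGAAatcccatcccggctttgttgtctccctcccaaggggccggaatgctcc
DKK1, KDM3B region of depleted cells (chr10:54074201-54074500): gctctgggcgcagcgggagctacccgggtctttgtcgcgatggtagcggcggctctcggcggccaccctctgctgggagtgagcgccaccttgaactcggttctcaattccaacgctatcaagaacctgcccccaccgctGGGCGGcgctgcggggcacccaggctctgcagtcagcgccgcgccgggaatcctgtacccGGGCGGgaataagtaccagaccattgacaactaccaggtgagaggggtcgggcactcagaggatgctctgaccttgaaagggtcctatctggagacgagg

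The promoter part of the DKK1 region in control cells had 1 TCF/LEF core and 1 GC box, and the region in depleted cells had no core and 2 GC boxes. A further KDM3B region of 100 bp at −5891 bp was called at the same position and with the same score of 19 in both lists. The DKK1 neighbourhood had 2 H3K9me2 regions within 50 kb in depleted cells, each of 100 bp and with a score of 19, at −5391 bp and at 32909 bp. The former lay 400 bp from the KDM3B region at −5891 bp. Both start regions also lie within 5 kb of a start site of PRKG1-AS1, by its name an antisense gene, and a region cannot be assigned to either gene by its position.

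NOTUM had the most H3K9me2 bases of the 8 genes within 5 kb of a TSS in depleted cells, and no KDM3B region at that distance. In the gene body, NKD1 had more (8900 bases against 2100), as did AXIN2 and ZNRF3. NOTUM (chr17:79910383-79919716, minus strand, 9.33 kb) had no H3K9me2 region within 5 kb in control cells and 7 in depleted cells, which covered 39.2% of the window. The widest of them, 2100 bp at −5687 bp and partly outside the window, had a score of 727, above that of 99.9% of the list. The next, 1500 bp at −1487 bp, had a score of 357. Inside the gene, regions of 800 bp lay at 2063 bp (exons 3 and 4) and at 4363 bp (exons 7 and 8), and shorter regions lay in intron 5 (400 bp) and at exon 9 (100 bp). No region was called across the canonical start site itself.

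Upstream of NOTUM, a KDM3B region of control cells lay beside an H3K9me2 region of depleted cells. A KDM3B region of 200 bp was called at −6937 bp in control cells, with a score above that of 71.4% of the list, and none was called there in depleted cells. The widest H3K9me2 region of depleted cells near the start began 100 bp from it. The sequence of this KDM3B region, from hg19 and on the minus strand, is shown because it holds 2 TCF/LEF cores of different letters and 2 GC boxes between them.
NOTUM, KDM3B region of control cells (chr17:79925901-79926100): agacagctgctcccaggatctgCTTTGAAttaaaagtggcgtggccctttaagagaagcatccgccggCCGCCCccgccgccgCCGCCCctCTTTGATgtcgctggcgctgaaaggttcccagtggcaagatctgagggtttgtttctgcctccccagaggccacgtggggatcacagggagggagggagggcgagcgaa

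Most of the H3K9me2 regions counted within 50 kb of NOTUM were nearer to other genes. Of 50 H3K9me2 regions in depleted cells, 8 had the NOTUM TSS as the nearest canonical start of a protein-coding gene. The others were nearest to PCYT2, SIRT7, MAFG, PYCR1, MYADML2, ASPSCR1 and CENPX. The widest was 3200 bp at −47037 bp, on the CENPX side, with a score of 1024. The 2 H3K9me2 regions of control cells, nearest to PYCR1 and MYADML2, overlapped regions of depleted cells. The other KDM3B region, 911 bp from the MAFG start in control cells, overlapped a KDM3B region of depleted cells. The 5-kb window of NOTUM had a GC content of 63.1%, the highest of the 8.

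APCDD1 had H3K9me2 without KDM3B near its start. APCDD1 (chr18:10454632-10489946, plus strand, 35.3 kb) had 3 H3K9me2 regions within 5 kb of a TSS in depleted cells and none in control cells. They lay at −532 bp (200 bp), in coding exon 3 at 17118 bp (100 bp) and in intron 3 at 19868 bp (200 bp), and the first had a score above that of 56.0% of the list. The KDM3B region counted within 50 kb lay 5724 bp from the start of NAPG and was called in both lists. In coding exon 4, at 31118 bp, H3K9me2 was called in control cells (100 bp, score above 4.35% of the list) and again in depleted cells (200 bp, score above 63.8%). The sequence of the upstream region, from hg19 and on the plus strand, is shown because it is the APCDD1 region nearest to the canonical start and holds a TCF/LEF core.
APCDD1, H3K9me2 region of depleted cells (chr18:10454001-10454200): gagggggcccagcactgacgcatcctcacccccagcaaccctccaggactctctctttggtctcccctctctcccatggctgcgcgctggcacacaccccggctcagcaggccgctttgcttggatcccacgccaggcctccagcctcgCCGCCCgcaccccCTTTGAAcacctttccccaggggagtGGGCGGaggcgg

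**Figure D3:**
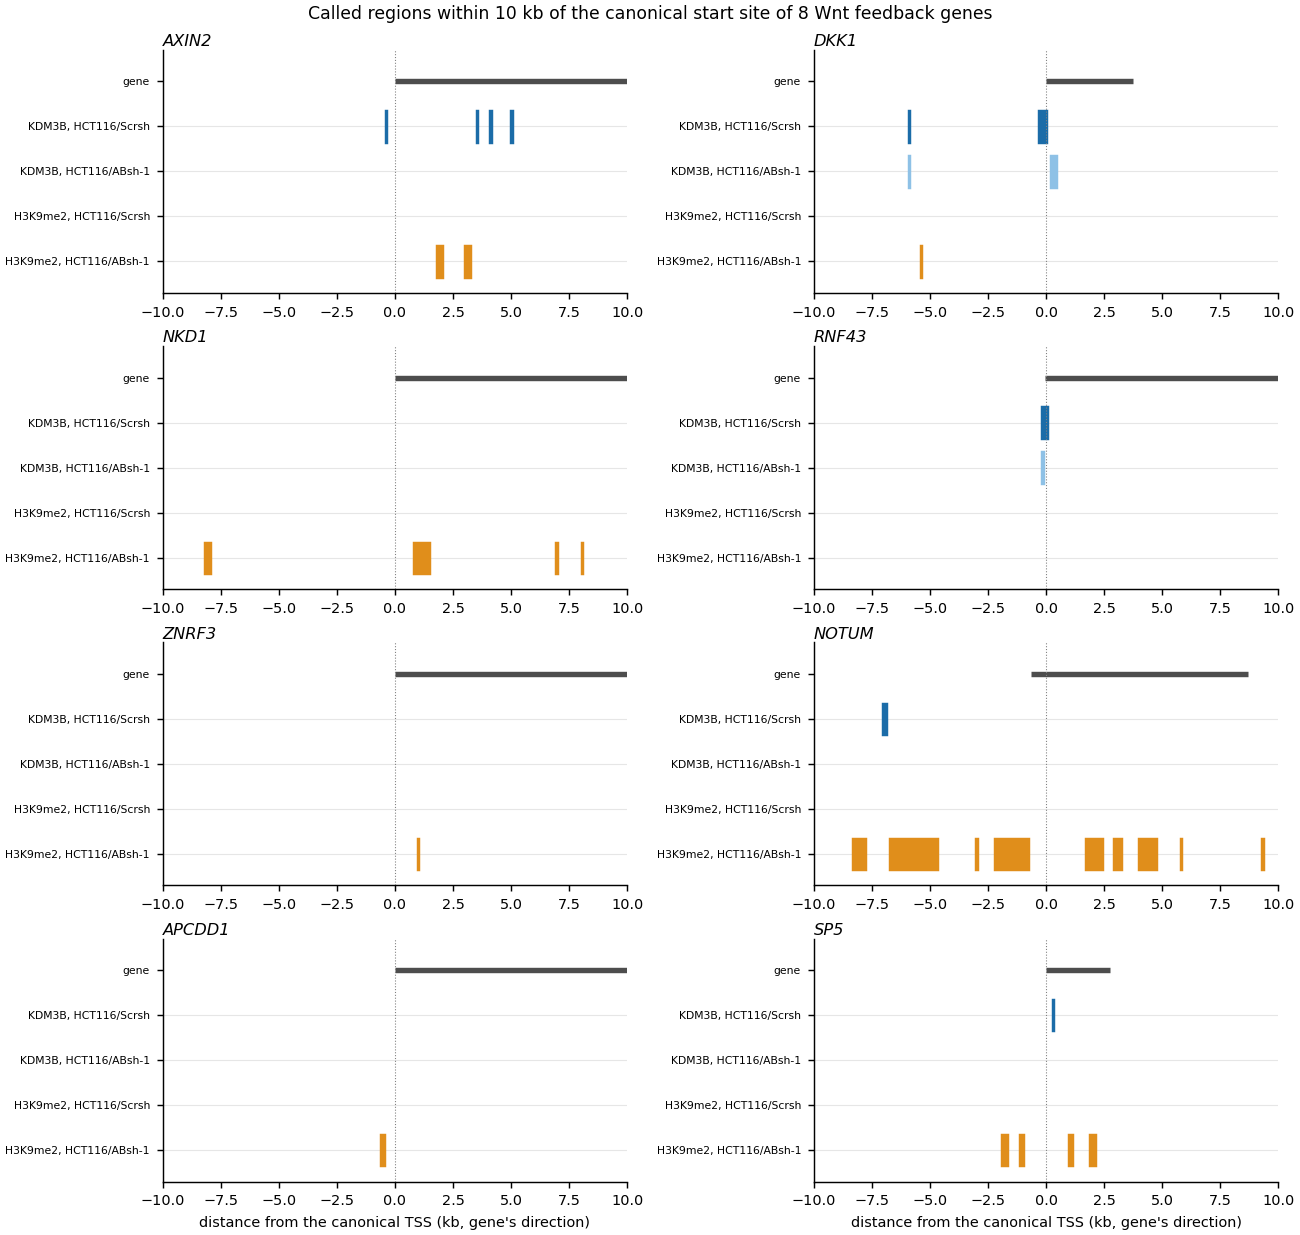
Called regions within 10 kb of the canonical TSS of the 8 genes, against the distance from it in kb, in the direction of transcription, drawn as in the map of whole genes. KDM3B regions of control cells lie across or beside the start of AXIN2, DKK1, RNF43 and SP5, and H3K9me2 regions of depleted cells lie on either side of the starts of NOTUM and SP5. Regions near other start sites of ZNRF3, RNF43, AXIN2, NKD1 and APCDD1 fall outside the panels.

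The 2 ubiquitin ligases differed from each other. RNF43 (chr17:56431037-56494956, minus strand, 63.9 kb) had KDM3B in depleted cells too, in smaller regions at its start and in intron 2. At its start, a region of 300 bp centred at −55 bp in control cells, with a score above that of 96.9% of the list, overlapped a region of 100 bp at −155 bp in depleted cells, with a score above that of 39.7%. In intron 2, KDM3B regions lay at 22845, 25895 and 29445 bp in control cells, and the first of them had the highest score of any KDM3B region of the 8 genes in that list (125, above 97.7% of the list). In depleted cells it remained as 100 bp with a score above 35.5% of the list, and the other 2 were not called. A region at −30105 bp was called in both lists and was wider in depleted cells (400 bp) than in control cells (200 bp). The 2 intronic regions with TCF/LEF cores are shown, from hg19 and on the minus strand.
RNF43, KDM3B region of control cells at 22845 bp (chr17:56471901-56472200): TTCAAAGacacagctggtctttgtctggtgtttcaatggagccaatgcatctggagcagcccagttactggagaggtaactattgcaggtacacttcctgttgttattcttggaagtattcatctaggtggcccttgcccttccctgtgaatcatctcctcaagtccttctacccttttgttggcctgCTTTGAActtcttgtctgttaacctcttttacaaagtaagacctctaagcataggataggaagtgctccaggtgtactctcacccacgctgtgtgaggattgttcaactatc
RNF43, KDM3B region of control cells at 25895 bp (chr17:56468901-56469100): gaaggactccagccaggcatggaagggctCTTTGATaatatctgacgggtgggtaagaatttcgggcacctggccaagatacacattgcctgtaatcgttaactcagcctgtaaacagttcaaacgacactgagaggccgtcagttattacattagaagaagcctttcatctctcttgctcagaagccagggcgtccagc

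The first of these sequences has 2 TCF/LEF cores and the second 1, and neither has a GC box. The 100 bp that remained in depleted cells hold 1 of the 2 cores of the first. H3K9me2 at RNF43 lay toward the end of the gene, in coding exon 6 (200 bp, at 54995 bp) and in coding exon 9 (100 and 200 bp), in depleted cells and not in control cells. The other 12 of the 15 H3K9me2 regions counted within 50 kb in depleted cells were nearest to the start of TSPOAP1, and the widest, 2300 bp, overlapped the 2 regions of control cells. A KDM3B region of 600 bp at the start of SUPT4H1 was called in depleted cells and not in control cells. The RNF43 start is shared with an unnamed coding gene model, so that the start regions cannot be assigned to either by position.

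ZNRF3 (chr22:29279560-29453476, plus strand, 174 kb) had KDM3B regions through its introns in control cells that were mostly absent in depleted cells. Of 7 KDM3B regions in its body in control cells, 4 in intron 1 and 3 in intron 2, 1 overlapped the only region of depleted cells, at 157290 bp in intron 2. None lay within 5 kb of the canonical start. The 3 within 5 kb of a TSS were near alternative starts, at 34740, 37590 and 101790 bp. Their scores were above those of 67.5%, 71.4% and 1.68% of the list. The intron 2 region still called in depleted cells had the highest score of the 7 in control cells, above 81.1% of the list. Those at 93190, 147890 and 155690 bp were of 100 bp, with low scores, above 10.1%, 6.64% and 1.68% of the list. The region at 34740 bp, from hg19 and on the plus strand, is shown because it lies 923 bp from an alternative start and holds a TCF/LEF core.
ZNRF3, KDM3B region of control cells (chr22:29314201-29314400): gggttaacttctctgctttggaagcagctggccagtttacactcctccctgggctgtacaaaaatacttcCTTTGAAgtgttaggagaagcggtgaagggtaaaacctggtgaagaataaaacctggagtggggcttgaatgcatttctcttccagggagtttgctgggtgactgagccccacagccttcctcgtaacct

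ZNRF3 was the only one of the 8 genes with an H3K9me2 region within 5 kb in control cells, 100 bp at coding exon 2 with a score of 7, above 1.21% of the list. It was not called in depleted cells, where a region of 100 bp lay at 990 bp in intron 1 instead, with a score above 7.37% of the list. The covered length within 5 kb was therefore 100 bases in both populations. The main H3K9me2 region of ZNRF3 in depleted cells lay far from its start, 1700 bp in coding exon 8 at 166490 bp, with a score of 366, above 99.1% of the list. A further 300 bp were called in the 3′ UTR.

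In the cytoplasm, AXIN2 and NKD1 had H3K9me2 within 5 kb of a TSS in depleted cells, of 2300 and 2065 bases. Most of these bases lay near alternative starts. Only AXIN2 had KDM3B within 5 kb of a TSS. AXIN2 (chr17:63524681-63557766, minus strand, 33.1 kb) had 400 KDM3B bases within 5 kb in control cells and none in depleted cells, and 2300 H3K9me2 bases in depleted cells and none in control cells. The 4 KDM3B regions within 5 kb were of 100 bp each, with scores above those of 21.2% to 57.5% of the list, and all 6 KDM3B regions within 50 kb were absent in depleted cells. The KDM3B region in coding exon 2 lay 200 bp from an H3K9me2 region of depleted cells (300 bp, score above 90.6% of the list). The widest H3K9me2 region, 1700 bp over coding exons 5, 6 and 7, had a score of 459, above 99.5% of the list. It held 1700 of the 2300 bases and lay at 24016 bp, near an alternative start. The mark also extended upstream, where regions of 800 bp were called at −11434 bp and −31334 bp in depleted cells. In control cells, H3K9me2 regions of 200 bp were already called at −47234, −47834 and 61366 bp. Those at −47234 and 61366 bp overlapped regions of depleted cells. The KDM3B region nearest to the canonical start, at −384 bp, is shown from hg19 on the minus strand as the one beside the promoter, and it holds 1 GC box.
AXIN2, KDM3B region of control cells (chr17:63558101-63558200): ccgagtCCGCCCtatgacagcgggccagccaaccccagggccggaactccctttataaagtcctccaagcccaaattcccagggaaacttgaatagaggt

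NKD1 (chr16:50582307-50683160, plus strand, 101 kb) had no KDM3B region within 5 kb or in its body in either list. Its body held 34 H3K9me2 regions in depleted cells, 8900 bases in all, and none in control cells. They made up 50.6% of the H3K9me2 bases in the bodies of the 8 genes. More H3K9me2 bases than in 98.0% of the bodies of protein-coding genes were covered, and per length of the body more than in 86.5%. The regions were short and spread along the gene, with a median width of 200 bp over the 36 within 50 kb. Of these, 17 lay wholly in intron 3 and 5 in intron 4, and 6 touched a coding exon. The widest, 1300 bp in intron 4, had a score of 230 (above 97.0% of the list), and the one nearest to the canonical start, 700 bp at 1143 bp, had a score of 171 (above 94.3%). The other H3K9me2 regions within 5 kb of a TSS lay at 71993 to 77043 bp, near an alternative start. The 2 KDM3B regions within 50 kb in control cells lay at −38657 bp and, nearer to SNX20 and called in both lists, at 117143 bp.

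The transcription factor gene SP5 (chr2:171571847-171574588, plus strand, 2.74 kb) had its only KDM3B region within 50 kb in intron 1, 303 bp from the start, in control cells. It was of 100 bp, with a score of 9, above 3.59% of the list, and it was not called in depleted cells. In depleted cells, 4 H3K9me2 regions covered 1000 bases within 5 kb, at −1797 bp (300 bp), −1047 bp (200 bp), 1053 bp (200 bp, coding exon 2) and 2003 bp (300 bp, end of exon 2). Their scores were above those of 50.2% to 75.8% of the list, and none was called in control cells. These regions also lie within 5 kb of a start site of the non-coding gene LINC01124. The KDM3B region, from hg19 on the plus strand, is shown because it lies between the H3K9me2 regions on either side. It holds neither motif.
SP5, KDM3B region of control cells (chr2:171572101-171572200): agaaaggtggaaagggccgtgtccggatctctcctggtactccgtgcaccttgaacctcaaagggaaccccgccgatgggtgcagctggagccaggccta

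TCF/LEF cores were found in 5 of the 28 KDM3B regions of the 8 genes in control cells, at DKK1, RNF43, ZNRF3 and NOTUM, and in 6.21% of all 17638 regions of that list. The share depends on width, and over the list it was 3.64% for regions of 100 bp, 7.19% for 200 bp, 10.7% for 300 bp and 12.0% for 400 bp. The 5 regions had widths of 200, 300 and 400 bp. In depleted cells, 3 of 10 KDM3B regions held a core, all of them in the RNF43 neighbourhood, against 3.91% of the list. They were of 100, 400 and 600 bp, the last at the start of SUPT4H1. Of the H3K9me2 regions, 2 of 10 in control cells (3.54% of the list) and 14 of 140 in depleted cells (3.92%) held one. The 14 had widths of 100 to 2100 bp, and many lay in the NOTUM neighbourhood. Over that list the share was 1.30% for 100 bp and 5.65% for 400 bp. Wider regions were not taken separately, so that these shares are not matched by width. In the 300 bases from 250 before to 50 after the canonical start, read from hg19, DKK1 and NKD1 had 1 core each and SP5 had 3, whereas the other 5 genes had none. Over all protein-coding genes 5.28% of such promoters held a core and 60.9% a GC box, which 7 of the 8 genes held, RNF43 being the exception. A match is a description of the letters and says nothing of a factor being bound.

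Of 28 KDM3B regions at the 8 genes in control cells, 8 overlapped a KDM3B region of depleted cells, 28.6% against 25.7% of the whole list. Only 1 of the 10 within 5 kb of a TSS did so, and no share over all regions near start sites was taken. Of 10 KDM3B regions at the 8 genes in depleted cells, 8 overlapped one of control cells, against 56.4% of the whole list. Of 10 H3K9me2 regions in control cells, 7 overlapped one of depleted cells (70.0% against 35.4%), and of 140 in depleted cells, 6 overlapped one of control cells (4.29% against 4.47%). The median gap from a KDM3B region of control cells to the nearest H3K9me2 region of depleted cells was 9100 bp for the regions at the 8 genes. It was 3550 bp for the 10 of them within 5 kb of a TSS, and 13600 bp for the whole list. The whole list includes regions far from any gene, and no gap was taken over all regions near start sites. Whether the gaps at the 8 genes are unusual for such regions was therefore not tested.

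The share of genes with H3K9me2 in depleted cells was higher in groups of genes with higher GC content. When all protein-coding genes were ordered by the GC content of their 5-kb windows and divided into 4 groups of equal number, 17.2%, 31.8%, 58.5% and 89.8% of the genes, from the lowest to the highest group, had an H3K9me2 region. KDM3B in control cells was called at 27.8%, 32.9%, 35.9% and 43.4%. NOTUM (63.1%), NKD1 (54.4%), AXIN2 (53.6%) and SP5 (52.4%) were in the highest group, all with 1000 or more H3K9me2 bases in depleted cells. ZNRF3 (46.4%) and APCDD1 (46.2%) were in the next, RNF43 (41.1%) in the one after and DKK1 (40.8%), the gene without an H3K9me2 region near its start, in the lowest. The part of GC content in the difference between the populations was not tested.

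**Figure D4:**
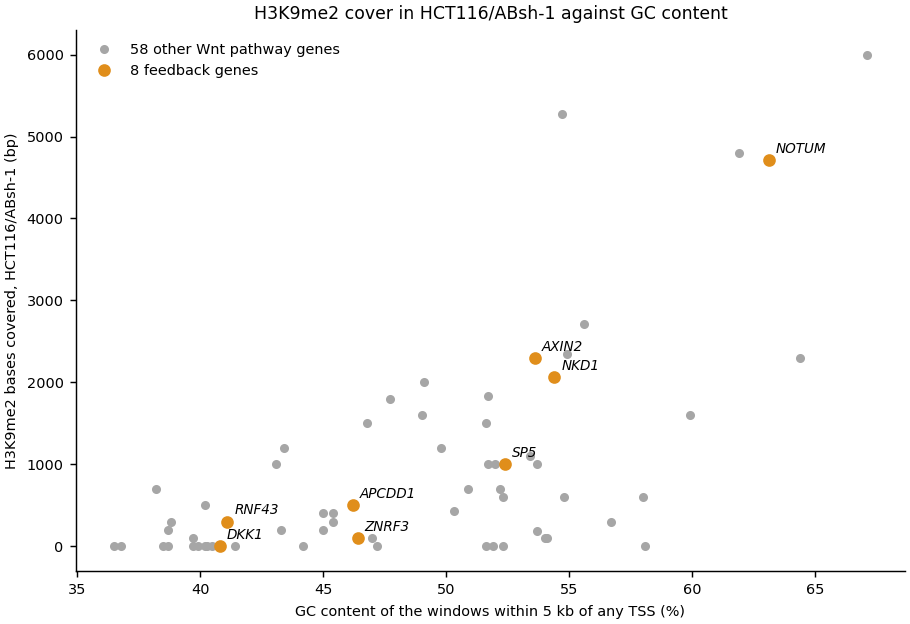
H3K9me2 bases covered in depleted cells within 5 kb of any TSS, in bp, against the GC content of the same windows in percent, for the 8 feedback genes (orange, named) and 58 other Wnt pathway genes (grey). Each point is 1 gene in 1 library. DKK1 lies at 0 bases and 40.8% GC, and NOTUM at 4716 bases and 63.1%.

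The other genes of the pathway were read in the same windows. Of 58 of them, 23 had a KDM3B region within 5 kb in control cells (39.7%) and 12 in depleted cells (20.7%), and 6 had an H3K9me2 region in control cells (10.3%) and 41 in depleted cells (70.7%). The feedback genes counted 5, 2, 1 and 7 of 8 in the same order. Among 6 paralogues, 5 had H3K9me2 in depleted cells, namely NKD2 with 4800 bases, APCDD1L with 1836, DKK3 with 1600, DKK2 with 700 and AXIN1 with 600, whereas DKK4 had none. NKD2 was the only paralogue with KDM3B in control cells (100 bases). Thus NKD2, like AXIN2, had KDM3B in control cells and H3K9me2 in depleted cells, and neither gene had both in the same population. NKD1 and AXIN1 had H3K9me2 in depleted cells and no KDM3B region within 5 kb.

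All 10 other secreted and surface antagonists had an H3K9me2 region in depleted cells, led by KREMEN2 (2300 bases) and KREMEN1 (1800), co-receptors of DKK proteins, and 3 of the 10 had KDM3B in each population. Of 19 receptors and R-spondins, 12 had H3K9me2 in depleted cells, among them LRP5 with 2340 bases and the Frizzled receptor gene FZD1 with 1500, and KDM3B was called at 6 in control cells and 3 in depleted cells. Of 11 cytoplasmic transducers, 4 had H3K9me2 in depleted cells, with 5998 bases at DVL1, a Dishevelled gene. GSK3A, a kinase gene of the degradation complex, had the fewest of the 4 (182 bases). It had 600 KDM3B bases in control cells and 500 in depleted cells. KDM3B was called at 6 of the 11 transducers in control cells and 3 in depleted cells. Of 12 nuclear factors, 10 had H3K9me2 in depleted cells, with 5274 bases at the co-repressor gene TLE2, and 7 and 3 had KDM3B. BCL9L, a β-catenin co-activator gene, had the most KDM3B of the pathway genes (1700 bases in control cells and 1400 in depleted cells) and no H3K9me2 region in either population.

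**Figure D5:**
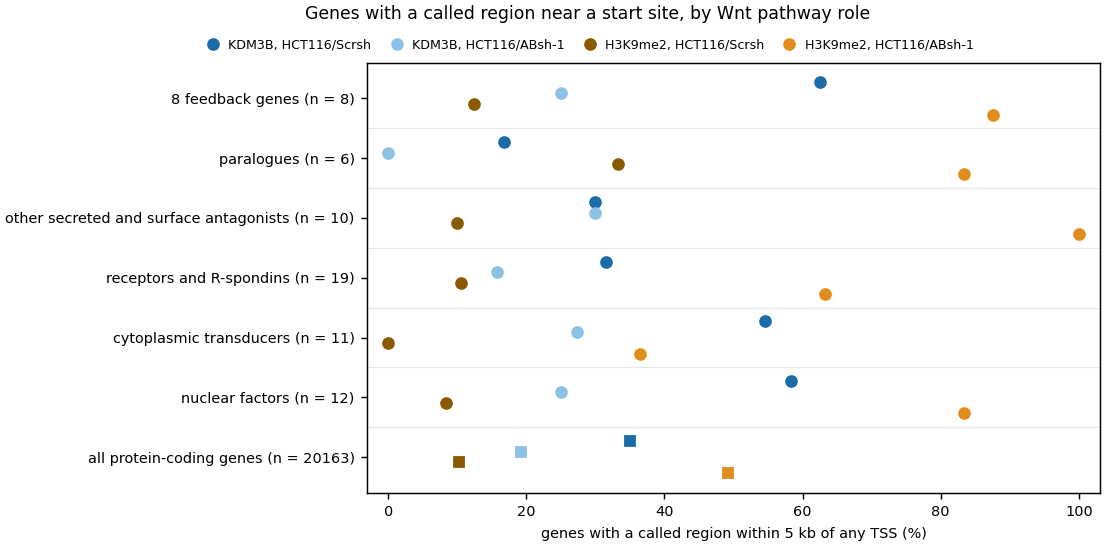
Share of genes, in percent, with a called region within 5 kb of any TSS in each of the 4 lists, for the 8 feedback genes, 5 groups of other Wnt pathway genes and all 20163 protein-coding genes (squares). Each point is the share in 1 library. The share with H3K9me2 in depleted cells was 87.5% of the feedback genes, 100% of the other antagonists, 36.4% of the cytoplasmic transducers and 49.2% of all protein-coding genes.

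The patterns of calls within 5 kb of a TSS over the 4 lists were shared with many other genes. Within 5 kb, NKD1, NOTUM and APCDD1 had a called region in the H3K9me2 list of depleted cells alone, as did 22.4% of all protein-coding genes. AXIN2 and SP5 had KDM3B in control cells and H3K9me2 in depleted cells within this distance, as did 8.55%. RNF43 had both of these and KDM3B in depleted cells (7.41%), DKK1 had KDM3B in both populations and no H3K9me2 region called within 5 kb (6.16%), and ZNRF3 had all but KDM3B in depleted cells (1.39%). By covered bases within 5 kb over the 4 lists, the protein-coding gene most like AXIN2 was KREMEN2, with 400 KDM3B bases in control cells, 2300 H3K9me2 bases in depleted cells and 0 in the other lists within 5 kb, the same values as AXIN2. The gene most like ZNRF3 was ATAD2, and 1 other was equally near. For DKK1, RNF43 and SP5 the nearest genes (ALKBH2, ARTN and CEACAM1, the first in the alphabet) were tied among 27, 7 and 14 genes with identical lengths.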

How the data were processed

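KDM3B and H3K9me2 ChIP-seq libraries of HCT116/Scrsh and HCT116/ABsh-1 cells, 1 for each antibody and population, were analysed as region lists, and the 2 input libraries were not analysed here. The authors mapped reads to hg19 with Bowtie (version not given in the sources used here), kept unique positions and counted a position once. They compared ChIP with input in windows of 100 bp by a Poisson test. The deposited lists hold region positions and a whole-number score of unnamed meaning, used only for ranks within a list. Although the authors describe neighbouring significant windows as a condition, 41.3% to 72.9% of the regions in a list are a single window.

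Regions were assigned to GENCODE release 44 genes on hg19 by an overlap of at least 1 bp with the windows of 5 or 50 kb around every TSS of a gene, or with its body. Distances are from the centre of a region to the canonical TSS. Depth is unknown, so that no interval for counting error could be given. The members and lists were chosen with earlier results of these data known. The text names the 8 genes, the nearest protein-coding gene of regions nearer to another gene, 6 paralogues, the 2 genes per pathway group with the most bases summed over the 4 lists, and for each member with regions within 5 kb in 2 or more lists the gene most similar in log10(bases + 100). The non-coding genes that share start windows and the sequences shown were chosen after the values were seen. Background shares are over 20163 protein-coding genes. The assignment was checked on simulated regions planted at known places. Python 3.11.15, numpy 2.4.6, pysam 0.24.0, samtools 1.23.1 and matplotlib 3.10.9 were used. The alternatives were the top 50% of scores, equal list lengths, regions of at least 200 bp, region centres, canonical start sites and windows of 2 kb.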

Additional observations from a re-analysis of the deposited data

How the results depend on the processing

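The 12 counts of members with a region were recomputed under 6 alternatives, except that the canonical TSS alone was applied to the 8 counts by distance from a TSS and the window of 2 kb to the 4 counts within 5 kb, and 42 of 60 values lay within 1.5 times of the count reported. The share of all protein-coding genes under the same alternative is given in parentheses. With equal numbers of regions per antibody, H3K9me2 in HCT116/ABsh-1 was called at 3 of the 8 genes within 5 kb (17.0%), 4 within 50 kb (36.8%) and 4 in the gene body (17.6%). With the top 50% of each list by score, KDM3B in HCT116/ABsh-1 was called at 1 within 5 kb (10.3%), and H3K9me2 in HCT116/Scrsh at 0 within 5 kb (6.87%), 3 within 50 kb (25.4%) and 0 in the body (10.8%). With regions of at least 200 bp, KDM3B in HCT116/Scrsh was called at 3 within 5 kb (21.1%) and 3 in the body (20.6%), KDM3B in HCT116/ABsh-1 at 1 within 5 kb (9.17%), 3 within 50 kb (27.9%) and 1 in the body (8.88%), and H3K9me2 in HCT116/Scrsh at 0 within 5 kb (4.05%), 3 within 50 kb (15.5%) and 0 in the body (6.40%). With the canonical TSS alone, KDM3B in HCT116/ABsh-1 was called at 3 within 50 kb (44.5%), and H3K9me2 in HCT116/Scrsh at 0 within 5 kb (6.10%) and 3 within 50 kb (31.1%). These alternatives keep fewer regions or smaller windows by construction. With region centres, the 12 counts stayed within 1.5 times, as did the 4 counts within 5 kb when the window was 2 kb. No paired analysis was possible because each condition had 1 library, which also leaves no replicate to leave out. Unknown depth limits every comparison of list lengths, and a missing region is not evidence of absence.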
